A study of Mus musculus with 9 samples.

Results

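CircRNAs are closed RNA loops made when the end of an exon or intron is joined back to a site upstream of it, and each circRNA probe of the array used here spans such a back-splice junction. The members described here are the circRNA probes whose signal stood above the local background on every array, in the HuD immunoprecipitations and in both kinds of control immunoprecipitation. They were chosen by the scanner's own mark "well above background" on all 9 arrays, and 2574 of 14236 circRNA probes met it. That mark is set from the same signals that are compared below, so a probe at background in any group is absent, and the presence and level of the members are described with no test. The deposited tables gave a name, a class, a position and a host gene for 114 members, from 98 host genes. The other 2460 members have only a probe identifier here.

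RNA was recovered by RNA immunoprecipitation (RIP) from the striatum of adult mice on 3 arrays a group. HuD RIP used an anti-myc antibody on tissue of transgenic mice that overexpress myc-tagged HuD (HuD-OE), and WT RIP used the same antibody on wild-type tissue, which carries no tagged protein. For IgG RIP, the study's methods describe non-immune IgG on HuD-OE tissue, whereas the sample labels list the anti-myc antibody for these samples too and give IgG in place of a genotype. The transgene is driven by the Camk2a promoter, which is active in forebrain neurons, on a C57BL/6J background, so the antibody reports on tagged HuD in the cells where that promoter is active and not on the native protein. Tissue of 3 mice was combined for each immunoprecipitation, and the description can be read as separate pools or as repeated assays of 1 pool, so the p-values measure the spread between these samples, which may be technical. HuD RIP is on one side of both comparisons with the controls, and these 2 comparisons therefore share their HuD RIP arrays.

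HuD, also called ELAVL4, belongs to the neuronal Hu family and binds A+U-rich and U-rich stretches of RNA. It is best known for stabilising neuronal messages during differentiation and plasticity. CircRNAs are abundant in brain, many of them come from genes that act at the synapse, and they resist the exonuclease RNase R, with which linear RNA was removed before labelling. An immunoprecipitation also carries RNA that adheres to the beads, the antibody or the tube, and the control arrays measure that material.

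The junction sequences of the 6 named members with the largest differences from both controls, and of the Arpp21 member, are shown to identify the probes. They are the 60 bases of the deposited tables, read 5′ to 3′, and no base is in capitals except in the Calm3 sequences, where capitals mark the longest stretch that both hold.
Gnb1 mmu_circRNA_38005: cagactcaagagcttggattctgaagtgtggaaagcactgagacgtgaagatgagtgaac
Calm3 mmu_circRNA_19450: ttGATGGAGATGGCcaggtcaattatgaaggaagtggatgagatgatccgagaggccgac
Calm3 mmu_circRNA_41204: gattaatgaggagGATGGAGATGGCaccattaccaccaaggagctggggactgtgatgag
Dpysl2 mmu_circRNA_27737: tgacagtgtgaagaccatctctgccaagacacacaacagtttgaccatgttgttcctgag
Dpysl2 mmu_circRNA_27741: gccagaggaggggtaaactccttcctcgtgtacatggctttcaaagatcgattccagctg
Atp1b1 mmu_circRNA_21193: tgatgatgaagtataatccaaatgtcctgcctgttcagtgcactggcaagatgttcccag
Arpp21 mmu_circRNA_45179: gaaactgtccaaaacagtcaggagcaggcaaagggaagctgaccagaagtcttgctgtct

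Detection split the circRNA probes at its ends. On none of the 9 arrays were 3322 probes well above background, and on exactly 8 arrays 390 probes were, against the 2574 members on all 9. Of those 390, 287 lacked the mark on an IgG RIP array, 94 on a WT RIP array and 9 on a HuD RIP array, so the IgG RIP arrays set most of the boundary. In the 10 members with the lowest signal on any array, that lowest log2 signal before scaling was 2.14 to 2.25, and in the 10 highest of the values that missed the mark it was 2.45 to 2.61. The mark is set against the background of each spot, so a value outside it can exceed one inside.

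Before scaling, the members were brightest on the HuD RIP arrays and dimmest on the IgG RIP arrays. Their median log2 signal was 5.98, 4.98 and 5.26 in HuD RIP, against 5.02, 4.34 and 4.64 in WT RIP and 4.28, 3.92 and 3.91 in IgG RIP. HuD RIP replicate 2 lay just below WT RIP replicate 1, while all IgG RIP arrays lay below all others. The group means were 5.41 ± 0.52, 4.67 ± 0.34 and 4.04 ± 0.21 (SD, n = 3). HuD RIP minus WT RIP was 0.74, HuD RIP minus IgG RIP was 1.37 and WT RIP minus IgG RIP was 0.63.

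Scaling turned this order. Each array was scaled by subtracting the 75th percentile of its own log2 signals, and this scaled log2 signal is used from here on. The members' median was then 0.52, 1.48 and 1.05 in HuD RIP, against 1.51, 1.99 and 1.82 in WT RIP and 1.85, 1.88 and 1.86 in IgG RIP. Every HuD RIP array now lay below all 6 control arrays. The 75th percentile that was subtracted was 5.46, 3.49 and 4.21 for HuD RIP and between 2.04 and 3.51 on the controls. The share of non-control probes well above background was 73.9%, 43.7% and 55.7% in HuD RIP. It was 44.6%, 25.4% and 31.7% in WT RIP and 26.3%, 21.8% and 21.7% in IgG RIP. On IgG RIP replicates 2 and 3 the percentile, 2.04 and 2.05, lay below the lowest signal of any member, 2.14. The subtracted value thus stood at unlike points of the detected signal on different arrays.

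**Figure D1:**
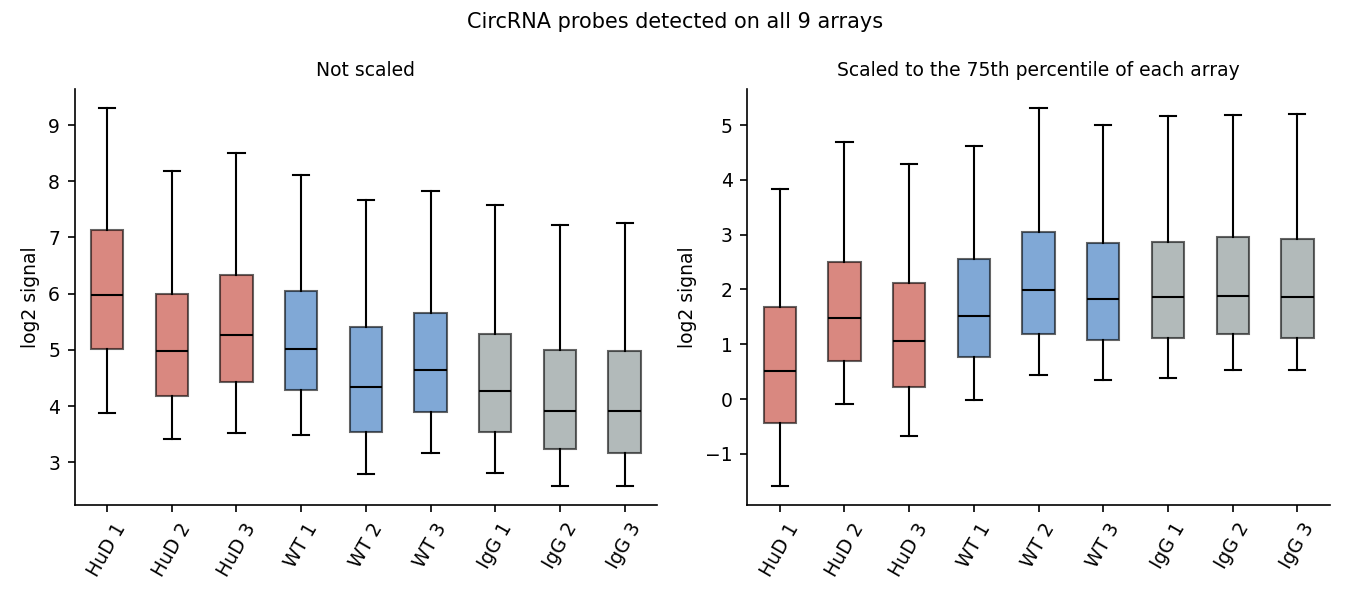
Log2 signal of the 2574 circRNA probes detected on all 9 arrays (y axis), by array (x axis), before scaling (left) and after subtracting each array's 75th percentile (right). Lines are medians, boxes run from the 25th to the 75th percentile and whiskers reach the 5th and 95th percentiles. The HuD RIP medians run from 4.98 to 5.98 on the left, where 5.98 and 5.26 are the highest of all arrays, and from 0.52 to 1.48 on the right, below all control medians.

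The replicates of the members agreed best in IgG RIP and least in HuD RIP. The median over members of the SD between 3 arrays was 0.17 in IgG RIP, 0.39 in WT RIP and 0.67 in HuD RIP on the scaled log2 scale, and for the 4250 other tested circRNA probes it was 0.43, 0.64 and 0.62. The scaled median of the members itself had an SD of 0.01 in IgG RIP, 0.24 in WT RIP and 0.48 in HuD RIP. A shift shared by the members of an array thus enters their SDs. Across members, Pearson's r between arrays of a group was from 0.97 to 0.98 for IgG RIP, from 0.86 to 0.95 for WT RIP and from 0.78 to 0.95 for HuD RIP. The probes share each array's labelling and brightness and are not independent. HuD RIP replicate 1 stood apart, with r of 0.57 to 0.82 to the control arrays against 0.79 to 0.90 for the other HuD RIP arrays, and counts without it are given below. The scanner's own error on a member's signal was 10.1% to 12% at the median of each array, against 10.4% to 42.1% for the other tested circRNA probes.

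Against wild-type tissue, the first comparison asks which circRNAs the anti-myc antibody recovered more of where tagged HuD was present. In limma's fit over all 6871 tested probes with Benjamini-Hochberg adjustment, 54 members were called higher and 563 lower in HuD RIP. Of all tested probes, 12.4% were called higher and 11% lower. The members' median log2 difference was -1.02. It was -0.36 over all tested probes, which include the members, and 0.26 over the other tested circRNA probes. Against IgG, 58 members were higher in HuD RIP and 1171 lower, where 14.2% of all tested probes were higher and 21.5% lower. The members' median log2 difference was then -1.11, against -0.29 over all tested probes and 0.37 over the other tested circRNA probes. Leaving out 1 array moved these counts: those higher and lower than WT RIP became 94 and 1542 when HuD RIP replicate 2 was omitted, and 23 and 5 when replicate 3 of HuD RIP was. Omitting a WT RIP array gave 83 and 1048 for its replicate 1, 35 and 27 for its replicate 2, and 27 and 4 for its replicate 3. The count lower than WT RIP was 16 without HuD RIP replicate 1 and between 39 and 51 without an IgG RIP array. Those higher and lower than IgG RIP were between 28 and 34 and between 100 and 357 without an IgG RIP array, and 28 and 160 without HuD RIP replicate 3. Without HuD RIP replicate 2, 102 were higher than IgG RIP, and without HuD RIP replicate 1, 398 were lower. Since membership required signal in every control, probes seen in HuD RIP alone are missing from these counts, and nothing is read from the small share of increases.

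The direction of the bulk of the members depended on the scaling. Without scaling, 2311 members (89.8%) had a mean in HuD RIP above that of WT RIP and 2556 (99.3%) above that of IgG RIP, while after scaling 318 and 332 did. The median difference without scaling was 0.48 and 1.11 over the members and 1.13 and 1.93 over all tested probes. The counts of members higher and lower were then 160 and 0 against WT RIP, and 1481 and 1 against IgG RIP. All 41 members described below as higher than both controls had a positive difference in both comparisons under each of the 7 ways of scaling or background correction. These members were chosen by their calls on the same arrays, and the 7 ways include the fit that chose them. Their shared sign is therefore no sign of stability. The overall brightness of an array moved with the groups, as the percentiles above show.

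Higher than both controls were 41 members (1.59% of the members), 38 of them named, where 9.88% of all tested probes were. Lower than both were 499 members (19.4%), all unnamed, where 9.14% of all tested probes were. The array positions, taken from the scanner's position codes, moved with the groups. Row 1 held the WT RIP arrays with HuD RIP replicate 1, and row 2 held 2 IgG RIP arrays with the other HuD RIP arrays. IgG RIP replicate 3 had a scan date apart from the rest, and a separate slide is inferred from that alone. With the row as a block and IgG RIP replicate 3 in a block of its own, 23 members were higher than both controls and 8 lower. Within row 1, which held 1 HuD RIP array and 3 WT RIP arrays, the median log2 difference from WT RIP was 2.86 over the 41 and -2.18 over the 499, and within row 2, with 2 arrays of each group, that from IgG RIP was 2.25 and -1.26. These members were chosen by their calls on the same arrays, so the sign of these within-row values is no sign of stability. Without HuD RIP replicate 1, 32 members were higher than both, 30 of them among the 41, and 11 were lower than both. The count higher than both became 79 when HuD RIP replicate 2 was omitted, 21 when HuD RIP replicate 3 was, and 27 when WT RIP replicate 3 was. Each of the 3 HuD RIP arrays exceeded every control array in 72 members (2.80% of the members, where 12.5% of all tested probes did so) and fell below every one in 1264 (49.1%, where 23% of all tested probes did so). The names come from tables that list only probes the authors called higher in HuD RIP on these same arrays, so that the named members rose, and that no named member fell, is not independent evidence.

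**Figure D2:**
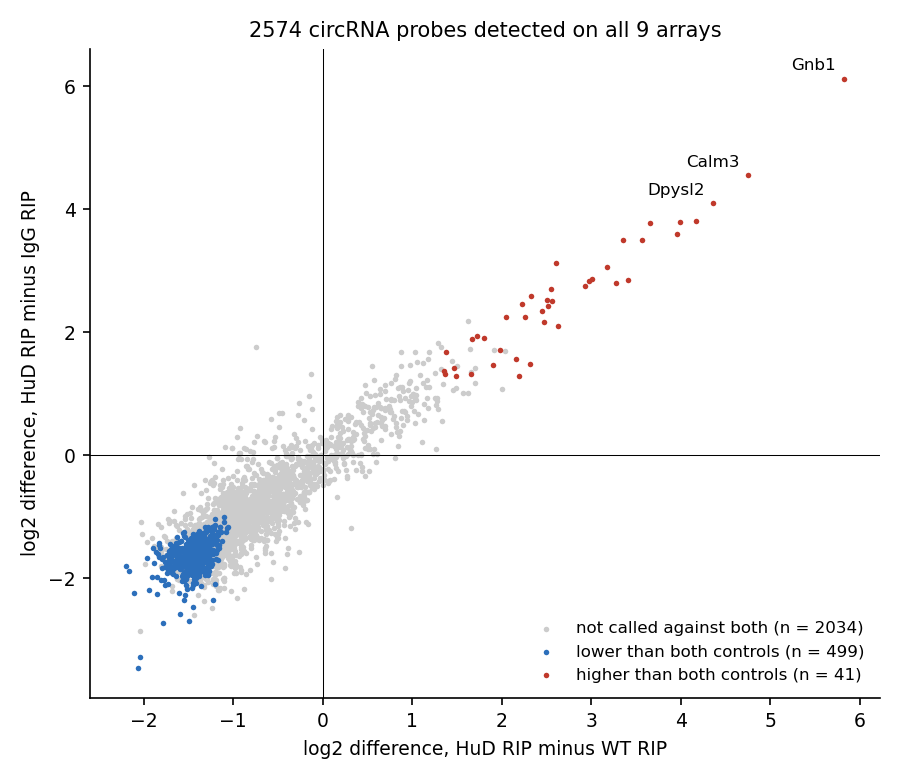
Log2 difference of each of the 2574 probes between HuD RIP and WT RIP (x axis) and between HuD RIP and IgG RIP (y axis), in scaled log2 units. Each point is a probe, red where it was called higher than both controls (41), blue where lower than both (499) and grey otherwise; both axes share the HuD RIP arrays, so points along the diagonal are no independent repeat. Gnb1 lies farthest out, at 5.82 and 6.12.

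The circRNA of Gnb1, which encodes the beta subunit of heterotrimeric G proteins, had the largest difference from both controls. The exonic Gnb1 mmu_circRNA_38005 lies at chr4:155527412-155535464 (plus strand), and its scaled log2 signal was 7.01, 6.53 and 7.44 in HuD RIP, against 2.45, 0.77 and 0.29 in WT RIP and 0.86, 0.62 and 1.12 in IgG RIP. Even the lowest HuD RIP array was far above the controls, of which WT RIP replicate 1 was the highest. HuD RIP exceeded WT RIP by 5.82 ± 0.53 (SE, adjusted p = 8.9e-05), which is 56.6-fold, and IgG RIP by 6.12 ± 0.53 (SE, adjusted p = 5.8e-05), which is 69.7-fold. Positions are as deposited; the tables name no build and do not say whether starts count from 0 or 1, and 106 named members fell inside their gene in RefSeq's GRCm38.p6. The Gnb1 probe was detected on every control array, but faintly on most. Its IgG RIP values of 0.62 to 1.12 lay below the members' medians there, 1.85 to 1.88. In WT RIP, replicates 2 and 3 lay below their member medians of 1.99 and 1.82, and replicate 1 lay above its 1.51. In HuD RIP its values lay far above the member medians of 0.52, 1.48 and 1.05. Both folds thus set a strong HuD RIP signal against weak signals on most control arrays.

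Calm3, 1 of the genes for the calcium sensor calmodulin, had 2 members, both of the class "sense overlapping" and both with very short spans, of 61 and 102 bases on the genome. For Calm3 mmu_circRNA_19450, at chr7:16917074-16917135 (minus strand), the scaled log2 signal was 7.06, 7.10 and 8.21 in HuD RIP, against 3.50, 2.49 and 2.12 in WT RIP and 2.90, 2.83 and 2.99 in IgG RIP. For Calm3 mmu_circRNA_41204, at chr7:16917596-16917698 (minus strand), it was 6.35, 5.28 and 6.47 in HuD RIP, against 2.42, 1.83 and 1.34 in WT RIP and 2.11, 2.43 and 2.15 in IgG RIP. The HuD RIP arrays lay above all controls for both. The first exceeded WT RIP by 4.75 ± 0.46 (SE, adjusted p = 1.2e-04) and IgG RIP by 4.55 ± 0.46 (SE, adjusted p = 1.5e-04). The second differed by 4.17 ± 0.44 (SE, adjusted p = 1.8e-04) against WT RIP and 3.80 ± 0.44 (SE, adjusted p = 2.7e-04) against IgG RIP. The span of the first is about the length of its probe, so that probe covers nearly the whole of the annotated circle.

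Dpysl2, which encodes the collapsin response mediator CRMP2 that binds tubulin in growing axons, also had 2 members. For Dpysl2 mmu_circRNA_27737, at chr14:66813125-66834376 (minus strand), the scaled log2 signal was 6.61, 4.29 and 5.76 in HuD RIP, against 1.83, 0.60 and 1.15 in WT RIP and 1.47, 1.31 and 1.57 in IgG RIP. For Dpysl2 mmu_circRNA_27741, which lies inside the span of the first, it was 5.45, 3.80 and 5.11 in HuD RIP, against 1.43, 1.04 and 0.89 in WT RIP and 0.93, 1.05 and 1.05 in IgG RIP. HuD RIP replicate 2 was the lowest of its group for both and still above every control array. The differences from WT RIP were 4.36 ± 0.55 (SE, adjusted p = 4.2e-04) and 3.66 ± 0.45 (SE, adjusted p = 3.4e-04), and those from IgG RIP were 4.1 ± 0.55 (SE, adjusted p = 6.4e-04) and 3.77 ± 0.45 (SE, adjusted p = 3.3e-04).

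Atp1b1, the beta subunit of the sodium and potassium pump, was the sixth of these. For Atp1b1 mmu_circRNA_21193, at chr1:164439298-164441641 (minus strand), the scaled log2 signal was 5.78, 3.70 and 5.80 in HuD RIP, against 2.06, 0.46 and 0.79 in WT RIP and 1.33, 1.47 and 1.08 in IgG RIP. HuD RIP replicate 2 again lay below its group, and above all controls. HuD RIP exceeded WT RIP by 3.99 ± 0.59 (SE, adjusted p = 0.0012) and IgG RIP by 3.79 ± 0.59 (SE, adjusted p = 0.0016). With normexp background correction the call against WT RIP was lost.

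**Figure D3:**
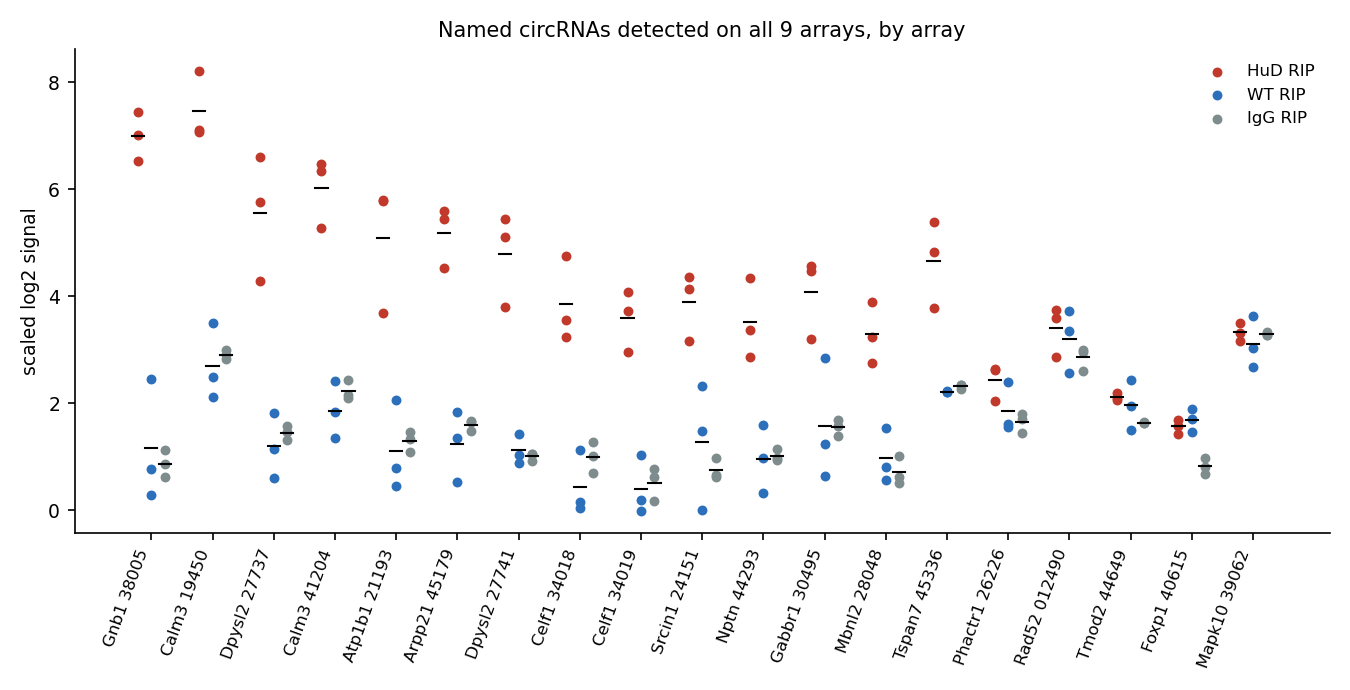
Scaled log2 signal (y axis) of 19 named circRNAs (x axis, host gene and circRNA number) on each of the 9 arrays, points coloured by group, with the group mean as a bar (n = 3). From Gnb1 to Tspan7 the HuD RIP points lie above all control points of the same probe; from Phactr1 to Mapk10 they do not. Heights of different probes are not comparable.

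Of 114 named members, 47 rose against WT RIP, 52 against IgG RIP and 38 against both, and no named member was called lower. Their median log2 difference was 1.12 from WT RIP and 1.14 from IgG RIP. Of all 41 members higher than both controls, 27 kept both calls under all 6 other scalings and background corrections, and 21 kept them in every fit that left out 1 array. Both conditions were met by 17, from the host genes Anp32e, Arf3, Arpp21, Calm3, Celf1 (1 of its 2 members), Dclk1, Dpysl2, Fam81a, Gnb1, Mmd, Nptn, Prkar1a, Tspan7 and Zfp106. All these fits reuse the arrays on which the 41 were called, so a kept call is no independent support. Both calls were kept by 23 of the 41 with the array row as a block, and by 0 with the methods' t-test after adjustment. With the brightness of each array as a covariate, an alternative chosen after seeing the data, 47 members were higher than both, and 4 of the 41 kept both calls, those of Gnb1, Anp32e, the 61-base Calm3 circRNA and the unnamed ASCRP4007010.

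Host genes that act at the synapse gave 24 named members from 19 genes. Of these, 10 rose against WT RIP, 12 against IgG RIP and 9 against both, and the median log2 differences were 1.08 and 1.24. The share higher than both was 37.5%, beside 33.3% of all named members and 9.88% of all tested probes. The 4 with the largest summed differences were those of Srcin1, Nptn, Gabbr1 and Tspan7. For Srcin1, a scaffold that regulates Src kinase, Srcin1 mmu_circRNA_24151 measured 4.14, 3.17 and 4.35 in HuD RIP, against 2.33, 1.49 and 0.01 in WT RIP and 0.98, 0.63 and 0.67 in IgG RIP. It exceeded WT RIP by 2.61 ± 0.55 (SE, adjusted p = 0.009) and IgG RIP by 3.13 ± 0.55 (SE, adjusted p = 0.0032). The WT RIP arrays were widely spread, and all of them lay below HuD RIP. The call against WT RIP was lost when HuD RIP replicate 3 was omitted.

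Nptn, which encodes the cell adhesion molecule neuroplastin, had 1 member that rose and 1 that did not pass the test. The exonic Nptn mmu_circRNA_44293 measured 3.36, 2.87 and 4.33 in HuD RIP, against 1.59, 0.32 and 0.98 in WT RIP and 1.14, 0.94 and 0.98 in IgG RIP. It exceeded WT RIP by 2.56 ± 0.47 (SE, adjusted p = 0.0036) and IgG RIP by 2.50 ± 0.47 (SE, adjusted p = 0.0042). The sense overlapping Nptn mmu_circRNA_44291 measured 2.34, 1.52 and 2.22 in HuD RIP, against 1.03, 1.67 and 1.39 in WT RIP and 1.36, 1.44 and 1.56 in IgG RIP, where WT RIP replicate 2 lay above HuD RIP replicate 2. Its differences were 0.66 ± 0.38 (SE, adjusted p = 0.185) against WT RIP and 0.57 ± 0.38 (SE, adjusted p = 0.246) against IgG RIP.

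Gabbr1 encodes a subunit of the metabotropic GABA-B receptor. For Gabbr1 mmu_circRNA_30495 the scaled log2 signal was 4.56, 3.21 and 4.47 in HuD RIP, against 2.84, 0.65 and 1.24 in WT RIP and 1.69, 1.39 and 1.57 in IgG RIP. WT RIP replicate 1 came close to HuD RIP replicate 2, and the groups did not overlap. HuD RIP exceeded WT RIP by 2.51 ± 0.56 (SE, adjusted p = 0.012) and IgG RIP by 2.53 ± 0.56 (SE, adjusted p = 0.0105). Not all of these calls held: that against WT RIP was lost with normexp background correction, and when replicate 1 or 3 of HuD RIP or replicate 3 of WT RIP was omitted, and that against IgG RIP with the array row as a block. For Tspan7, a tetraspanin that takes part in trafficking of glutamate receptors, Tspan7 mmu_circRNA_45336 measured 4.83, 3.79 and 5.39 in HuD RIP, against 2.21, 2.21 and 2.22 in WT RIP and 2.34, 2.35 and 2.26 in IgG RIP. Its 6 control arrays lay close together, and all HuD RIP arrays lay above them. HuD RIP exceeded WT RIP by 2.45 ± 0.43 (SE, adjusted p = 0.003) and IgG RIP by 2.35 ± 0.43 (SE, adjusted p = 0.0038).

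The other synaptic members higher than both controls came from Anks1b, Gpm6a, Homer1 and Scamp1. Those of Dlg4, which encodes the scaffold PSD-95, and Gria2, an AMPA receptor subunit, did not pass either test. For Dlg4 mmu_circRNA_23602 the differences were 0.59 ± 0.35 (SE, adjusted p = 0.197) against WT RIP and -0.11 ± 0.35 (SE, adjusted p = 0.816) against IgG RIP, and for Gria2 mmu_circRNA_35640 they were 0.65 ± 0.47 (SE, adjusted p = 0.287) against WT RIP and 0.77 ± 0.47 (SE, adjusted p = 0.204) against IgG RIP.

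Host genes of RNA-binding proteins gave 12 named members from 11 genes, of which 6 rose against WT RIP, 8 against IgG RIP and 6 against both, with median log2 differences of 1.40 and 1.63. The share higher than both was 50%, beside the same 33.3% and 9.88%. The 6 came from Arpp21, Celf1 (2 members), Celf4, Mbnl2 and Zfp106. Celf1 encodes a splicing and decay factor that binds G+U-rich RNA. Its Celf1 mmu_circRNA_34018 measured 4.76, 3.23 and 3.57 in HuD RIP, against 1.13, 0.15 and 0.04 in WT RIP and 1.28, 1.02 and 0.69 in IgG RIP, and Celf1 mmu_circRNA_34019 measured 4.07, 2.96 and 3.73 in HuD RIP, against 1.04, 0.19 and -0.01 in WT RIP and 0.77, 0.17 and 0.62 in IgG RIP. Both were above every control on every HuD RIP array. The first exceeded WT RIP by 3.41 ± 0.48 (SE, adjusted p = 8.4e-04) and IgG RIP by 2.85 ± 0.48 (SE, adjusted p = 0.0024), and the second differed by 3.18 ± 0.44 (SE, adjusted p = 7.6e-04) against WT RIP and 3.07 ± 0.44 (SE, adjusted p = 9.1e-04) against IgG RIP. With normexp the first lost both calls and the second kept them.

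Mbnl2 encodes a muscleblind splicing factor, and Mbnl2 mmu_circRNA_28048 measured 3.89, 2.75 and 3.24 in HuD RIP, against 1.54, 0.81 and 0.56 in WT RIP and 1.01, 0.51 and 0.62 in IgG RIP. The groups did not overlap. HuD RIP exceeded WT RIP by 2.33 ± 0.43 (SE, adjusted p = 0.0037) and IgG RIP by 2.58 ± 0.43 (SE, adjusted p = 0.0022), and the call against WT RIP was lost with normexp. Members of Celf2, Rbfox1, Stau2, Fam120a, Tia1 and Prrc2b were not called against WT RIP, and those of Tia1 and Prrc2b were called against IgG RIP, Tia1 by 1.76 ± 0.62 (SE, adjusted p = 0.0442) and Prrc2b by 1.50 ± 0.40 (SE, adjusted p = 0.0172).

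Host genes that mark striatal cell types were looked up among the named members. Of 24 spiny neuron markers, 3 were hosts of a named member, Arpp21, Foxp1 and Phactr1. Of 12 astrocyte markers 1 was, Slc1a2, and of 14 oligodendrocyte and 12 microglia and vessel markers none was. The defining spiny neuron genes Ppp1r1b, Drd1, Drd2 and Penk hosted no named member. Names exist only for circRNAs that the authors called higher in HuD RIP. Among all named probes tested, 10 came from spiny neuron markers and 2 from astrocyte markers. From oligodendrocyte markers and from microglia and vessel markers there were 0. Their absence from the members was thus fixed beforehand, and this lookup cannot test the tissue or its cell types. Fewer cells of a type and less RNA per cell cannot be told apart in whole tissue.

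Arpp21, a regulator of calmodulin signalling and an RNA-binding protein abundant in spiny neurons, was the host of the 1 spiny neuron member that passed the tests. Arpp21 mmu_circRNA_45179, at chr9:112143308-112183584 (minus strand), measured 5.60, 4.53 and 5.45 in HuD RIP, against 1.83, 0.53 and 1.35 in WT RIP and 1.64, 1.67 and 1.47 in IgG RIP. HuD RIP exceeded WT RIP by 3.95 ± 0.44 (SE, adjusted p = 2.3e-04) and IgG RIP by 3.60 ± 0.44 (SE, adjusted p = 3.9e-04). The actin regulator gene Phactr1 hosted Phactr1 mmu_circRNA_26226, whose signal was 2.62, 2.03 and 2.64 in HuD RIP, against 2.40, 1.62 and 1.56 in WT RIP and 1.80, 1.44 and 1.71 in IgG RIP, with WT RIP replicate 1 inside the HuD RIP range. The transcription factor gene Foxp1 hosted Foxp1 mmu_circRNA_40615, whose signal was 1.43, 1.70 and 1.58 in HuD RIP, against 1.89, 1.70 and 1.47 in WT RIP and 0.82, 0.68 and 0.97 in IgG RIP, with the WT RIP and HuD RIP arrays overlapping. Neither passed a test against a control, with differences of 0.57 ± 0.39 (SE, adjusted p = 0.259) against WT RIP and 0.78 ± 0.39 (SE, adjusted p = 0.128) against IgG RIP for Phactr1 and -0.12 ± 0.35 (SE, adjusted p = 0.808) against WT RIP and 0.75 ± 0.35 (SE, adjusted p = 0.106) against IgG RIP for Foxp1. The astrocyte glutamate transporter gene Slc1a2 hosted Slc1a2 mmu_circRNA_34116, with differences of 0.76 ± 0.47 (SE, adjusted p = 0.217) against WT RIP and 0.71 ± 0.47 (SE, adjusted p = 0.246) against IgG RIP.

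In the other host gene lists, which were written with earlier results of these data known, the counts were as follows, to be read beside 38 of all 114 named members and 9.88% of all tested probes higher than both. GTPase and trafficking genes gave 11 members, of which 6 rose against both controls, from Arf3 (2 members), Gnb1, Rab10, Rgs7bp and Scamp1. Cytoskeleton and motor genes gave 12, of which 4 rose against both, from Ctnnd2, Dclk1 and Dpysl2 (2 members). Channel and transporter genes gave 5, of which 3 rose against both, from Atp1b1, the calcium pump gene Atp2a2 and the channel-associated Fgf14. Chromatin and transcription genes gave 13, of which 2 rose against both, from Camta1 and Ubp1. Kinase and phosphatase genes gave 10, of which 2 did, from Dclk1 and Prkar1a, the regulatory subunit of protein kinase A. The ubiquitin list had 1 member, from Rnf169, which did not pass a test. Median log2 differences from WT RIP ran from 0.43 for that 1 member to 1.80 for channels and transporters, beside 1.12 over all named members.

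Of the 98 host genes, 16 had 2 members each and none had more, so 2 junctions of 1 gene could be compared on the same arrays. In 5 pairs both members rose against both controls (Arf3, Calm3, Celf1, Dpysl2 and Homer1), in 4 only 1 did (Camta1, Fam81a, Nptn and Sdf4) and in 7 neither did (Dnm1, Erc2, Foxk2, Lppr4, Malat1, Prkcb and Rad52). The median gap between the log2 differences of a pair was 0.31 in the comparison with WT RIP and 0.26 in that with IgG RIP, and the widest was that of Nptn, 1.90 and 1.93. In 7 pairs the probes share a run of at least 15 bases and also a start or an end on the genome, so these are partly the same target sequence and not independent measurements. Those of Celf1, Arf3, Homer1, Camta1 and Rad52 are printed to show how much they share, with the longest unbroken shared run in capitals; shorter stretches outside it can also be shared, as in the Rad52 and Camta1 pairs.
Celf1 mmu_circRNA_34018: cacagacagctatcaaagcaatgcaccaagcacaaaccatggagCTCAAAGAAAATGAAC
Celf1 mmu_circRNA_34019: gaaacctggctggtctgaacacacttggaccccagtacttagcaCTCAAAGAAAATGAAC
Arf3 mmu_circRNA_009996: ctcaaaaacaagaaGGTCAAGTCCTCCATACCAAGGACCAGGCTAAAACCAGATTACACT
Arf3 mmu_circRNA_29053: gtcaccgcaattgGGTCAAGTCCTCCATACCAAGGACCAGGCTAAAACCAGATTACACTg
Homer1 mmu_circRNA_010239: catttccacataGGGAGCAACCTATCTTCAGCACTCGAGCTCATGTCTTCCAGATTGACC
Homer1 mmu_circRNA_26702: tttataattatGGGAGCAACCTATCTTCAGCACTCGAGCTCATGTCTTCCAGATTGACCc
Camta1 mmu_circRNA_010432: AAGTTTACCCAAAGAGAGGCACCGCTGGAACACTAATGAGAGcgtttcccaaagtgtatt
Camta1 mmu_circRNA_19351: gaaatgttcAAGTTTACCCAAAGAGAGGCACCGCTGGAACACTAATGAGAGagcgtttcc
Rad52 mmu_circRNA_19432: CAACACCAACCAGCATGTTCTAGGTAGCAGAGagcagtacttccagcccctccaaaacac
Rad52 mmu_circRNA_012490: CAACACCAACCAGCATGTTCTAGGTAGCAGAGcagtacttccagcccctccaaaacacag

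**Figure D4:**
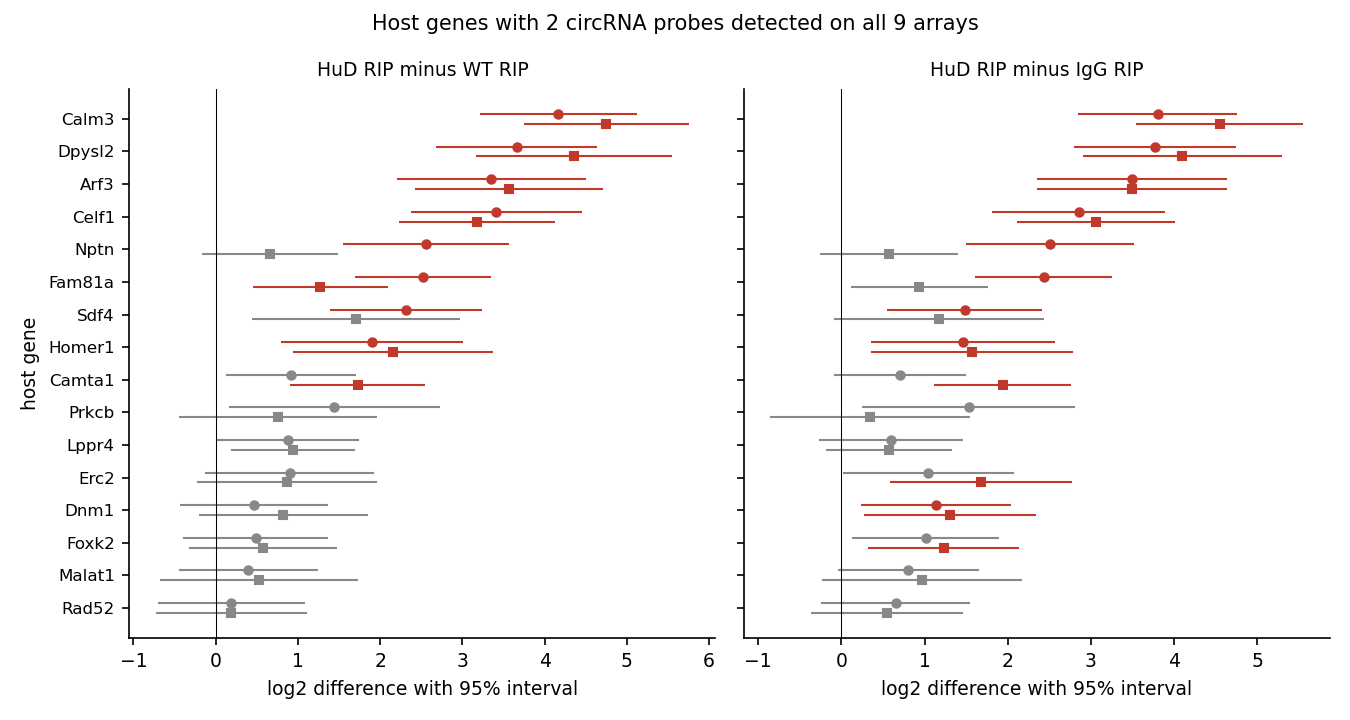
Log2 difference between HuD RIP and WT RIP (left) and between HuD RIP and IgG RIP (right) for the 16 host genes (y axis) with 2 circRNA probes detected on all 9 arrays. Circles and squares are the 2 probes, bars are 95% intervals from limma, and red marks an adjusted p under 0.05. The 4 pairs at the top lie at 2.85 or above on both sides, and in the Nptn pair 1 probe is at 2.56 and the other at 0.66 against WT RIP.

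The Arf3 members, from the gene of a Golgi GTPase, share a run of 46 bases and gave nearly the same values. Arf3 mmu_circRNA_009996 measured 4.86, 3.69 and 4.81 in HuD RIP, against 2.19, 0.25 and 0.84 in WT RIP and 0.54, 1.16 and 1.17 in IgG RIP, and Arf3 mmu_circRNA_29053 measured 5.41, 4.20 and 5.37 in HuD RIP, against 2.52, 0.50 and 1.26 in WT RIP and 1.49, 1.68 and 1.32 in IgG RIP. WT RIP replicate 1 was the highest control array for both, and below all HuD RIP arrays. The differences were 3.35 ± 0.53 (SE, adjusted p = 0.0017) and 3.56 ± 0.53 (SE, adjusted p = 0.0011) against WT RIP, and 3.50 ± 0.53 (SE, adjusted p = 0.0013) and 3.49 ± 0.53 (SE, adjusted p = 0.0013) against IgG RIP.

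Homer1 encodes a postsynaptic scaffold that links glutamate receptors to calcium stores. Its members, the exonic Homer1 mmu_circRNA_010239 at chr13:93341755-93356079 (plus strand) and the intronic Homer1 mmu_circRNA_26702 at chr13:93341755-93357647 (plus strand), share their start and a run of 48 of 60 bases. The first measured 3.84, 3.00 and 3.13 in HuD RIP, against 2.66, 0.82 and 0.79 in WT RIP and 1.91, 1.92 and 1.73 in IgG RIP, and the second 3.93, 3.07 and 3.20 in HuD RIP, against 2.72, 0.48 and 0.52 in WT RIP and 1.94, 1.88 and 1.67 in IgG RIP. WT RIP replicate 1 came close to the lowest HuD RIP array in both, and the groups did not overlap. The first exceeded WT RIP by 1.90 ± 0.51 (SE, adjusted p = 0.0289) and IgG RIP by 1.47 ± 0.51 (SE, adjusted p = 0.042), and the second differed by 2.16 ± 0.56 (SE, adjusted p = 0.0249) against WT RIP and 1.57 ± 0.56 (SE, adjusted p = 0.0456) against IgG RIP. For each member both calls held in 2 of the 9 fits that left out 1 array, those without HuD RIP replicate 2 or WT RIP replicate 1, and were not both kept with normexp.

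Camta1, a calmodulin-binding transcription activator gene, had members that share an unbroken run of 42 bases, with more shared after it, and a start on the genome. The sense overlapping Camta1 mmu_circRNA_19351 measured 3.30, 2.74 and 3.52 in HuD RIP, against 1.42, 1.70 and 1.27 in WT RIP and 0.96, 1.31 and 1.48 in IgG RIP, and the exonic Camta1 mmu_circRNA_010432 measured 2.92, 2.67 and 3.20 in HuD RIP, against 1.75, 2.18 and 2.09 in WT RIP and 2.09, 2.05 and 2.52 in IgG RIP. The HuD RIP arrays were above all controls for both. The first rose by 1.73 ± 0.38 (SE, adjusted p = 0.0105) against WT RIP and 1.94 ± 0.38 (SE, adjusted p = 0.0056) against IgG RIP, and it was not called against both controls when replicate 3 of HuD RIP or of WT RIP was omitted. The differences of the second were 0.92 ± 0.36 (SE, adjusted p = 0.0694) against WT RIP and 0.71 ± 0.36 (SE, adjusted p = 0.138) against IgG RIP, and whether the 2 members differ from each other was not tested.

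Malat1, a nuclear long noncoding RNA, hosted the single antisense member. The antisense Malat1 mmu_circRNA_008347 differed by 0.40 ± 0.39 (SE, adjusted p = 0.434) against WT RIP and 0.81 ± 0.39 (SE, adjusted p = 0.118) against IgG RIP, and the sense overlapping Malat1 mmu_circRNA_32201 by 0.53 ± 0.55 (SE, adjusted p = 0.466) against WT RIP and 0.97 ± 0.55 (SE, adjusted p = 0.177) against IgG RIP. Neither passed a test.

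The 499 members lower than both controls carry no name in the deposited tables. By the same rule as for the increases, the lowest against both were ASCRP4005802 and ASCRP4011381. ASCRP4005802 measured 0.79, -0.86 and 1.14 in HuD RIP, against 1.91, 2.78 and 2.72 in WT RIP and 2.56, 2.84 and 2.38 in IgG RIP. HuD RIP replicate 2 was the lowest of its group, and all HuD RIP arrays lay below the controls. It was lower than WT RIP, at -2.11 ± 0.52 (SE, adjusted p = 0.0192), and than IgG RIP, at -2.24 ± 0.52 (SE, adjusted p = 0.0123). ASCRP4011381 measured -1.26, -0.02 and -1.23 in HuD RIP, against 1.03, 1.38 and 1.28 in WT RIP and 3.25, 2.06 and 2.58 in IgG RIP, again with no overlap, and its differences were -2.07 ± 0.46 (SE, adjusted p = 0.011) against WT RIP and -3.46 ± 0.46 (SE, adjusted p = 5.9e-04) against IgG RIP.

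These decreases depended on the scaling and on single arrays. Without scaling, 326 of the 499 had a HuD RIP mean above that of WT RIP, 487 above that of IgG RIP, and 9 below both. None of the 499 kept both calls under all 6 other scalings and background corrections, and 2 kept them when any 1 array was left out. With array brightness as a covariate, 0 of the 499 kept both calls. The count of members lower than both was 4 without HuD RIP replicate 3 or WT RIP replicate 3, 11 without HuD RIP replicate 1 or WT RIP replicate 2, between 14 and 33 without an IgG RIP array, 887 without WT RIP replicate 1 and 1434 without HuD RIP replicate 2.

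**Figure D5:**
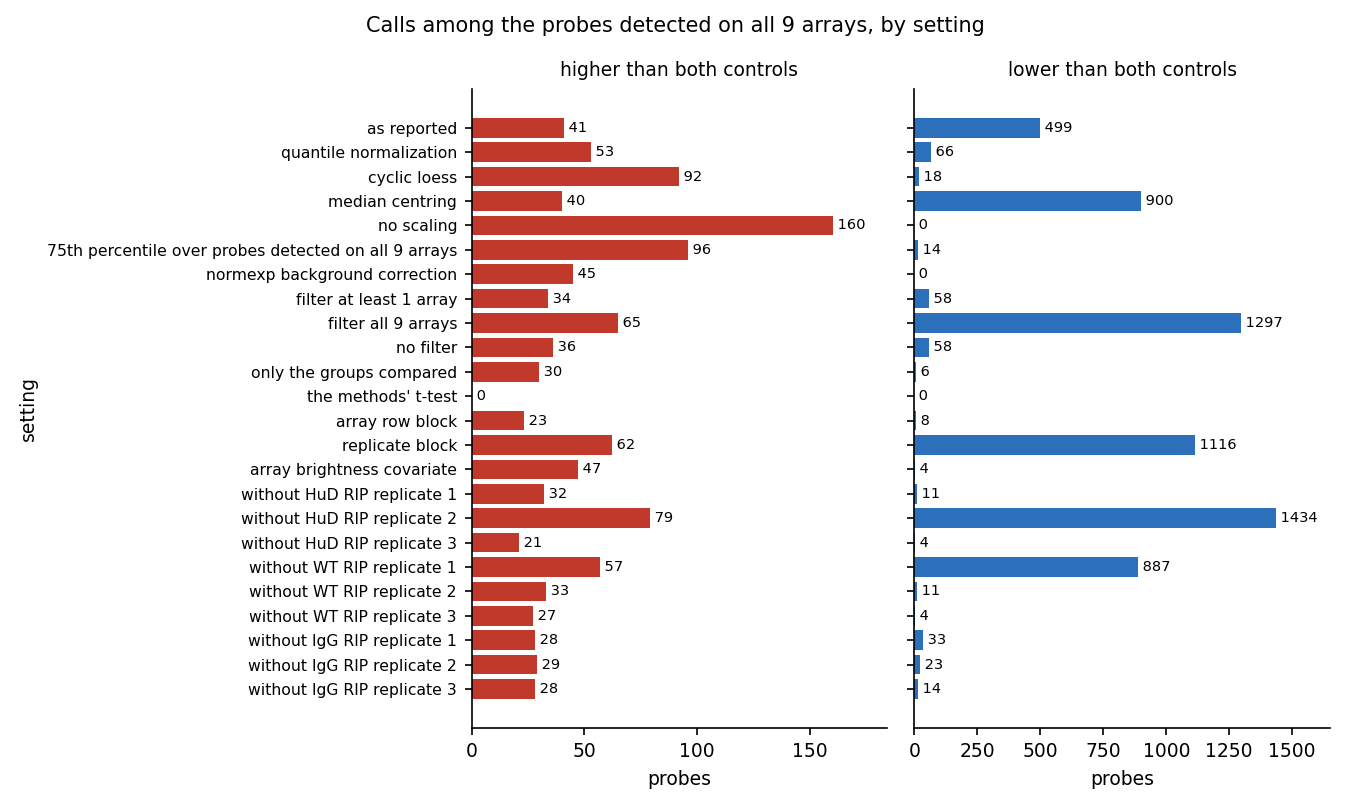
Number of the 2574 probes (x axis) called higher (left) and lower (right) than both controls under each setting (y axis), with the count at each bar. The higher count runs from 0 with the methods' t-test to 160 without scaling, and the lower count from 0 to 1434; the x axes differ.

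By the study's methods the 2 controls differ in antibody and in tissue, and they were compared to see whether the members' scaled signals were alike in them. By limma after adjustment, 0 members differed between them in either direction. Of all tested probes 0% were higher in WT RIP and 0.0146% lower. At an unadjusted p under 0.05 there were 60 members, and the methods' t-test gave 211 before and 0 after adjustment. The median log2 difference was -0.13, and 2532 members (98.4%) differed by less than 2-fold. The median 95% interval reached 0.94 to either side, and it lay wholly within 2-fold for 469 members. Its width comes from a spread pooled over all 3 groups, HuD RIP included. The members' median SD was 0.67 in HuD RIP, against 0.39 in WT RIP and 0.17 in IgG RIP. For most members this fit thus does not exclude a 2-fold difference, and intervals from the control arrays alone are not given here.

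The largest difference between the controls belonged to a circRNA of Ets1, a transcription factor gene. Ets1 mmu_circRNA_43955 measured 2.24, 3.88 and 1.93 in HuD RIP, against 3.55, 3.46 and 3.28 in WT RIP and 1.26, 0.42 and 1.08 in IgG RIP. The WT RIP arrays lay together above the IgG RIP arrays, and HuD RIP replicate 2 lay above both groups. WT RIP minus IgG RIP was 2.51 ± 0.50 (SE, adjusted p = 0.402). Next among those higher in WT RIP was the zinc-finger gene Zfp426, whose Zfp426 mmu_circRNA_43813 measured 5.29, 5.99 and 5.11 in HuD RIP, against 6.25, 5.0 and 5.53 in WT RIP and 4.71, 3.98 and 3.73 in IgG RIP, and WT RIP minus IgG RIP was 1.45 ± 0.45 (SE, adjusted p = 0.633). Both were called higher in HuD RIP than in IgG RIP, Ets1 by 1.76 ± 0.50 (SE, adjusted p = 0.0219) and Zfp426 by 1.32 ± 0.45 (SE, adjusted p = 0.0404), and against WT RIP the differences were -0.75 ± 0.50 (SE, adjusted p = 0.252) for Ets1 and -0.13 ± 0.45 (SE, adjusted p = 0.837) for Zfp426. In the other direction 2 unnamed members had WT RIP minus IgG RIP of -1.50 ± 0.37 (SE, adjusted p = 0.436) in one and -1.43 ± 0.38 (SE, adjusted p = 0.533) in the other.

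The named members nearest to 0 in both comparisons came from Mapk10, Tmod2 and Rad52. For Mapk10, a neuronal JNK kinase gene, Mapk10 mmu_circRNA_39062 measured 3.16, 3.31 and 3.50 in HuD RIP, against 2.69, 3.63 and 3.03 in WT RIP and 3.27, 3.34 and 3.27 in IgG RIP, and the groups overlapped. HuD RIP minus WT RIP was 0.21 ± 0.37 (SE, adjusted p = 0.673) with a 95% interval of -0.60 to 1.03, and HuD RIP minus IgG RIP was 0.03 ± 0.37 (SE, adjusted p = 0.95) with an interval of -0.78 to 0.85. For Tmod2, a neuronal actin capping protein gene, Tmod2 mmu_circRNA_44649 had differences of 0.16 ± 0.37 (SE, adjusted p = 0.753) against WT RIP and 0.49 ± 0.37 (SE, adjusted p = 0.311) against IgG RIP. For Rad52, a recombination gene, Rad52 mmu_circRNA_012490 had 0.19 ± 0.42 (SE, adjusted p = 0.742) against WT RIP and 0.55 ± 0.42 (SE, adjusted p = 0.318) against IgG RIP, and the other Rad52 member, whose sequence shares an unbroken run of 32 bases with it and nearly all that follows, had 0.19 ± 0.41 (SE, adjusted p = 0.738) against WT RIP and 0.65 ± 0.41 (SE, adjusted p = 0.221) against IgG RIP. The Mapk10 intervals reach 1.03 and 0.85, so increases up to these sizes are not excluded.

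Features that the choice of members did not use were described for the named probes. Of 114 named members 97 were exonic, 14 sense overlapping, 2 intronic and 1 antisense. Of the 623 other named probes 87.8% were exonic and 8.67% sense overlapping, against 85.1% and 12.3% of the named members. The median span on the genome was 8164 bases for the named members and 11016 for the others, and 8 members (7.02%) and 19 others (3.05%) spanned under 300 bases. Among the 38 named members higher than both controls, 8 were sense overlapping, and among the other 76, 6 were. No test was run on these shares.

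HuD prefers U-rich RNA, so the printed strand of each 60-base junction was searched for the motif ATTTA, for runs of TTTTT, and for the wider motif TTTNTTT, where N is any base. The last can overlap the second. Of the 114 named members 2 (1.75%) held the first, 3 (2.63%) the second and 1 (0.877%) the last, against 5.94%, 3.85% and 1.12% of the 623 other named probes. On the opposite strand the shares were 1.75%, 7.02% and 3.51% for the members and 4.17%, 8.67% and 3.85% for the others. Of the 38 members higher than both controls none held any of the 3 on the printed strand, where among the other 76 named members 2, 3 and 1 did. On the opposite strand 0, 4 (10.5%) and 3 (7.89%) of the 38 held them, and 2 (2.63%), 4 (5.26%) and 1 (1.32%) of the 76. No test was run on these shares either. A junction probe covers a small part of most of these circRNAs, and these letters in it are a description, not a site. The median G+C share was 46.7% in the members and 45.0% in the others, and the T share 21.7% and 23.3%. The members that hold a motif are shown with it in capitals.
Ogt mmu_circRNA_45641: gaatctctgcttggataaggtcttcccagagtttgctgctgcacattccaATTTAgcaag
Nptn mmu_circRNA_44291: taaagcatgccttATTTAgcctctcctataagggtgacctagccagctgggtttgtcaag
Nudc mmu_circRNA_37766: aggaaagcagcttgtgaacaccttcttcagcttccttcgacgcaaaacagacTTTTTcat
Fgf12 mmu_circRNA_29472: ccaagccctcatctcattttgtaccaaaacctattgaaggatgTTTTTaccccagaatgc
Dnm1 mmu_circRNA_33286: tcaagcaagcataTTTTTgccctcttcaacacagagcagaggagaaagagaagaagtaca
Erc2 mmu_circRNA_016816: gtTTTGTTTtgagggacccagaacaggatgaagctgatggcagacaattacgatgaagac

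Of these 6, that of Ogt, the gene of an enzyme that adds N-acetylglucosamine to proteins, had differences of 1.17 ± 0.61 (SE, adjusted p = 0.146) against WT RIP and 1.56 ± 0.61 (SE, adjusted p = 0.0615) against IgG RIP. That of Nudc, a dynein-associated chaperone gene, had 0.47 ± 0.44 (SE, adjusted p = 0.419) against WT RIP and 0.80 ± 0.44 (SE, adjusted p = 0.164) against IgG RIP. That of Fgf12, which acts on sodium channels, had 0.75 ± 0.41 (SE, adjusted p = 0.164) against WT RIP and 0.70 ± 0.41 (SE, adjusted p = 0.19) against IgG RIP. The members of the endocytic GTPase gene Dnm1 and of the active zone gene Erc2 were called against IgG RIP, by 1.14 ± 0.41 (SE, adjusted p = 0.0487) and 1.68 ± 0.50 (SE, adjusted p = 0.0258), and not against WT RIP, at 0.47 ± 0.41 (SE, adjusted p = 0.382) and 0.87 ± 0.50 (SE, adjusted p = 0.187). None of the 6 was higher than both controls.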

How the data were processed

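Arrays carried RNase R-treated RNA labelled with Cy3 through random primers, on a mouse circRNA array. The authors scanned them and deposited Feature Extraction 11.0.1.1 intensity values, already background-subtracted, for 3 arrays in each of 3 groups. The deposited tables gave names, positions, classes and junction sequences, only for probes the authors called higher in HuD RIP; their 24 columns of values by sample, fold changes and p-values were not used. Their build is not named in them; of the named members, 106 matched a transcript of RefSeq (GRCm38.p6), all inside the gene.

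The deposited values are linear; their log2, taken here from the authors' processed intensity, was reduced on each array by the 75th percentile of its 14330 non-control probes and tested by limma 3.58.1 in R 4.3.3 (3 group means, Benjamini-Hochberg over 6871 probes well above background on at least 3 arrays, called at an adjusted p under 0.05), after leaving out 269 outlier spots; no spot was saturated. The number of arrays limits the precision. The fit was tested on simulated data with independent noise for each probe and no shift in brightness between arrays. That test therefore does not bear on the brightness differences described above. Every adjusted p is from this fit. A span is the end minus the start of a circRNA on the genome. Members and lists were chosen with earlier results of these data known. Described members are the 6 highest and 2 of the 4 lowest against both controls, the 3 largest called changes in each comparison, the 2 largest between controls in each direction, the 4 with the largest summed difference in the synapse, RNA-binding and spiny neuron lists, and the 3 nearest to 0; unnamed probes that fell are printed for 2 only. Those of host pairs, Dlg4, Gria2, Tia1, Prrc2b, Slc1a2 and the motif-bearing probes were added after their values were seen.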

Additional observations from a re-analysis of the deposited data

How the results depend on the processing

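The number of arrays, 3 a group, and the brightness of the IgG RIP arrays limit these results, and the cause of each move below was not tested. Listed in the order higher and lower than WT RIP, higher and lower than IgG RIP, and higher and lower than both controls, the reported counts of 54, 563, 58, 1171, 41 and 499 became 107, 22, 160, 250, 92 and 18 with cyclic loess, 160, 0, 1481, 1, 160 and 0 without scaling, and 108, 20, 156, 313, 96 and 14 with the 75th percentile taken only over probes detected everywhere. With quantile normalization the lower counts were 71, 676 and 66 and the count higher than IgG RIP was 91. Median centring gave 1064 lower than WT RIP and 900 lower than both. Normexp gave 2, 7 and 0 lower and 109 higher than IgG RIP. A filter of detection on at least 1 array gave 74 and 58 lower than WT RIP and than both, and no filter 66 and 58. With only probes detected on all 9 arrays tested, 85, 92 and 65 were higher, and 1434 and 1297 were lower than WT RIP and than both. Fits on only the groups compared gave 30 higher and 6 lower than WT RIP, and 6 lower than both. The methods' t-test gave 0, 0, 23, 97, 0 and 0 after adjustment, and 731 and 1374 members before it against WT RIP and IgG RIP. With the array row as a block 1375 were lower than WT RIP, 23 and 16 higher and lower than IgG RIP, and 23 and 8 higher and lower than both. With array brightness as a covariate, chosen after seeing the data, 13 were lower than WT RIP, 92 and 10 higher and lower than IgG RIP, and 4 lower than both. Membership by another scanner mark, signal significantly above background, gave 5316 members, of which 272, 316 and 219 were higher. Excluding members with an outlier spot changed no count, since 0 members had one. Leaving out 1 array at a time gave 23 to 94, 4 to 1542, 28 to 102, 100 to 1618, 21 to 79 and 4 to 1434. Of the 9 fits, that without HuD RIP replicate 2 gave the highest of each range, and those without HuD RIP replicate 3, WT RIP replicate 3 or IgG RIP replicate 3 the lowest. Deviations of same-numbered arrays from their group means were correlated over the tested probes. Between HuD RIP and WT RIP, r was 0.648, 0.557 and -0.099 for replicates 1, 2 and 3, and in the pairs with IgG RIP it was -0.025 to 0.099. The reported fit did not pair the arrays. With the replicate block 1235 were lower than WT RIP, 62 higher than both and 1116 lower than both. The members' median log2 difference from WT RIP was -0.22 with cyclic loess, 0.48 without scaling, -0.31 with that 75th percentile and -0.14 with normexp, and from IgG RIP -0.30, 1.11, -0.30 and -0.031. Between the controls it was 0.59 without scaling. It ran from -1.30 to -0.73, from -1.43 to -0.83 and from -0.25 to 0.02 over the arrays left out. No member was called between WT RIP and IgG RIP after adjustment under any of these settings. Of 1334 values for 58 single-probe differences under the alternatives, 1150 kept direction and side of the threshold, 152 lost the call, 27 gained one and 5 reversed. The reversals were HuD RIP minus IgG RIP of 4 unnamed probes, at 0.032, 0.41, 1.04 and 0.21 without scaling, and at 1.16 with the brightness covariate for the second.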
